A study of Sus scrofa with 24 samples.

Results

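The family of miR-103 and miR-107 and the family of miR-26 were followed through the differentiation of pig preadipocytes from 2 fat depots. The members were all entries of the deposited table named ssc-miR-103, ssc-miR-107, ssc-miR-26a or ssc-miR-26b with any number or arm suffix, and the rule used no measured value. It found 5 of the 1587 entries: ssc-miR-103, ssc-miR-107, ssc-miR-26a, ssc-miR-26b-5p and ssc-miR-26b-3p. Small RNA was sequenced from cultured subcutaneous (BF, back fat) and intramuscular (IMF, longissimus dorsi muscle) cells of 3 Yorkshire piglets aged 6 days. Day 0 was collected before induction (BF-0d and IMF-0d). All other cultures received induction medium with 3-isobutyl-1-methylxanthine, dexamethasone and insulin for 2 days, then insulin alone for 2 days and then growth medium, and were collected on day 2 (BF-2d, IMF-2d), day 4 (BF-4d, IMF-4d) and day 8 (BF-8d, IMF-8d). Each of the 8 groups had 3 libraries, 24 in all. The labels do not tie a library to a piglet, so the p-values measure the spread between these libraries, part of which may be technical. Values are reads per 1000000 reads counted on miRNAs, called TPM, from 4954845 to 16863560 such reads per library.

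A miRNA guides the silencing complex to mRNAs mainly through its seed, which is bases 2 to 8 counted from its 5′ end, so miRNAs with one seed are expected to share many targets. miR-103 and miR-107 lie within genes of pantothenate kinases, the first enzymes of coenzyme A synthesis, and are known as regulators of insulin sensitivity that act on caveolin-1 in adipocytes. The miR-26 family lies within genes of small C-terminal domain phosphatases and is known to promote the differentiation of human adipocyte progenitors. Both families are therefore followed often in studies of fat.

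The mature sequences are shown because each family differs by so few bases that the counts of its members depend on them. They are written 5′ to 3′ as DNA letters, with the seed in capitals, and come from the study's list of miRNAs.
ssc-miR-103: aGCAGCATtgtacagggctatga
ssc-miR-107: aGCAGCATtgtacagggctatca
ssc-miR-26a: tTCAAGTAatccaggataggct
ssc-miR-26b-5p: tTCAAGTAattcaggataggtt
ssc-miR-26b-3p: cCTGTTCTccattacttggct

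Counted from the 5′ end, miR-103 and miR-107 differ at 1 of 23 bases, G22C, and their first 21 bases are identical. A read of 21 bases or fewer cannot tell them apart. miR-26a and miR-26b-5p are 22 bases long and differ by C11T and C21T, so any read past base 10 can tell them apart. Among the 958 entries with a mature sequence, no entry outside each family carried the seed GCAGCAT or TCAAGTA, and ssc-miR-26b-3p, from the opposite arm of the miR-26b hairpin, shared its seed with no other entry.

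Exact copies of the mature sequences were located in the Sscrofa11.1 genome, and each lay in an intron of a protein-coding gene on the same strand. miR-103 had 2 copies, at chr16:55329491-55329513 on the plus strand in PANK3 (annotated as MIR103-1) and at chr17:31808848-31808870 on the minus strand in PANK2 (MIR103-2), and the value of ssc-miR-103 cannot be divided between them. miR-107 had 1 copy, at chr14:101420756-101420778 on the minus strand in PANK1 (MIR107), where the long non-coding RNA LOC110256785 runs along the plus strand. miR-26a had 1 copy, at chr5:23112793-23112814 on the minus strand in CTDSP2 (MIR26A). The 2 arms of miR-26b lay in CTDSP1, ssc-miR-26b-5p at chr15:120453420-120453441 and ssc-miR-26b-3p at chr15:120453455-120453475, both on the plus strand.

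ssc-miR-26a was the most abundant member, with a mean of 4869 TPM over the 24 libraries, rank 16 of the 363 known miRNAs. ssc-miR-103 had a mean of 890 TPM (rank 39), ssc-miR-26b-5p of 550 TPM (rank 54) and ssc-miR-107 of 25.9 TPM (rank 153). Reads per library ranged from 24731 to 103008 for ssc-miR-26a, from 5655 to 20436 for ssc-miR-103, from 2692 to 14088 for ssc-miR-26b-5p and from 118 to 548 for ssc-miR-107, so these 4 were counted well in every library. Their widest change between any 2 libraries was 3.98-fold for ssc-miR-26b-5p, followed by 2.49-fold for ssc-miR-107, 2.27-fold for ssc-miR-103 and 1.78-fold for ssc-miR-26a. ssc-miR-26b-3p was at the limit of detection: it had 0 to 14 reads per library, 4 libraries at 0 and only 10 libraries above 3 reads, the smallest amount taken as detected. With a mean of 0.355 TPM it stayed below the minimum mean of 1 TPM and was not tested, so 4 of the 5 members were tested among 430 entries. Such limits cover counting error only, because copies made by PCR cannot be told from separate molecules.

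**Figure D1:**
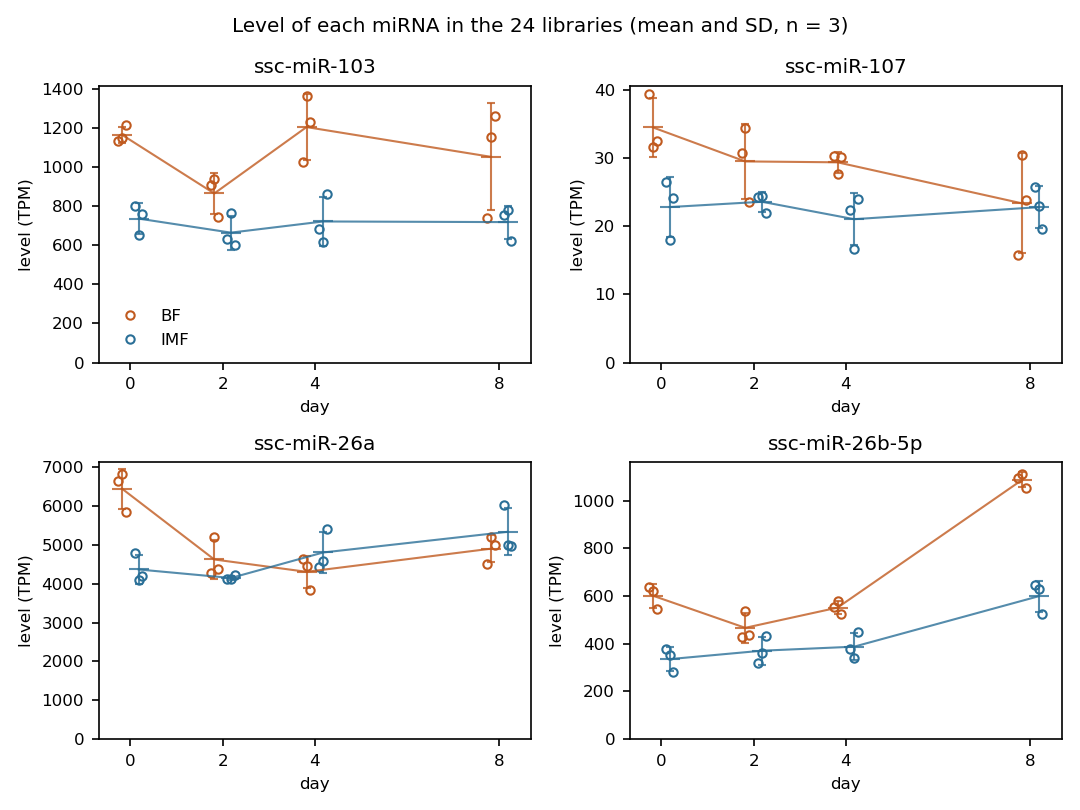
Level in TPM (y axis, from 0) of ssc-miR-103, ssc-miR-107, ssc-miR-26a and ssc-miR-26b-5p in each library on days 0, 2, 4 and 8 (x axis), with BF in orange and IMF in blue. Circles are libraries, horizontal marks are means and bars are SD (n = 3). The 3 BF-8d libraries of ssc-miR-26b-5p, from 1053 to 1113 TPM, sit above all other libraries, and ssc-miR-103 is higher in BF than in IMF without overlap on days 0 and 4.

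The first question was how each member changed with the day of differentiation. ssc-miR-26b-5p rose late in both sources, whereas ssc-miR-103, ssc-miR-107 and ssc-miR-26a passed in no comparison of days by limma on the TPM scale. By edgeR, DESeq2 and median-of-ratios scaling, ssc-miR-107 also passed as lower in BF-8d than in BF-0d. A DE-miRNA was an entry with a false discovery rate (FDR) under 0.05 and a fold change above 1.5 in limma, on log2(TPM + 1). Over the 8 comparisons of days, 4 of 32 results of members were DE-miRNAs, all of them ssc-miR-26b-5p and all higher on day 8, a share of members near the 12.4% of results called over all entries (428 of 3440). Each library was made from a whole culture, so a change in the make-up of the cells and a change of level per cell cannot be told apart.

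In BF, the 3 libraries of ssc-miR-26b-5p had 638, 623 and 544 TPM (day 0), 428, 538 and 435 TPM (day 2), 554, 578 and 523 TPM (day 4) and 1098, 1113 and 1053 TPM (day 8). Every BF-8d library was therefore above every earlier BF library, and the earlier days overlapped with each other except for days 0 and 2. Between BF-0d and BF-8d the mean rose from 602 ± 50.1 to 1088 ± 31.1 TPM (SD, n = 3 each), with a log2 fold change of 0.86 (SE 0.18, limma adjusted p = 8.94e-04). In that comparison 42.8% of all entries tested were DE-miRNAs, and 1 of the 4 members was. Between BF-4d and BF-8d it rose from 552 ± 27.2 TPM by 0.98 on the log2 scale (SE 0.19, limma adjusted p = 0.0183), while 3.02% of all entries were DE-miRNAs. The call was lost in 3 fits without 1 library, in which the log2 fold change lay between 0.96 and 1.01, with a limma adjusted p of 0.0724 without BF-4d replicate 2, 0.0855 without BF-8d replicate 2 and 0.0677 without BF-8d replicate 3. The rise from day 0 to day 8 was kept whichever of its 6 libraries was left out.

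In IMF they had 376, 351 and 280 TPM (day 0), 318, 361 and 434 TPM (day 2), 377, 339 and 448 TPM (day 4) and 646, 628 and 525 TPM (day 8). As in BF, the day 8 libraries stood above all earlier ones, at a lower level. Between IMF-0d and IMF-8d the mean rose from 336 ± 50.2 to 600 ± 65.3 TPM, a log2 fold change of 0.84 (SE 0.15, limma adjusted p = 0.00744), beside 30.5% of all entries, and it was kept without any single library but lost without replicate 1 of both groups (0.87, limma adjusted p = 0.0686). Between IMF-4d and IMF-8d it rose from 388 ± 55.3 TPM by 0.63 on the log2 scale (SE 0.15, limma adjusted p = 0.0338), beside 13% of all entries. That call was lost in 4 of 6 fits without 1 library: the log2 fold change was 0.61 without IMF-4d replicate 1 (limma adjusted p = 0.0982), 0.54 without IMF-4d replicate 2 (0.0826), 0.57 without IMF-8d replicate 1 (0.107) and 0.59 without IMF-8d replicate 2 (0.135). With the libraries scaled by median of ratios it fell to a log2 value of 0.44, below the fold change required.

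ssc-miR-103 passed in no comparison of days. In BF they were 1133, 1146 and 1212 TPM (day 0), 906, 940 and 746 TPM (day 2), 1022, 1360 and 1228 TPM (day 4) and 741, 1154 and 1258 TPM (day 8). The day 2 libraries were below all libraries of day 0 and day 4, but neither difference passed the test: log2 fold changes were -0.44 (SE 0.13, limma adjusted p = 0.105) from day 0 to day 2 and 0.47 (SE 0.20, limma adjusted p = 0.158) from day 2 to day 4. By DESeq2 the change from day 0 to day 2 was -0.41 (adjusted p = 0.0270), which met the FDR but not the fold change required. The share of DE-miRNAs among all entries was 4.19% and 6.05% in these comparisons. In IMF, ssc-miR-103 was at 801, 650 and 757 TPM (day 0), 630, 763 and 599 TPM (day 2), 683, 619 and 862 TPM (day 4) and 753, 779 and 622 TPM (day 8), and every pair of days overlapped. Between IMF-0d and IMF-2d and between IMF-2d and IMF-4d, 0% of all entries were DE-miRNAs by limma, although 68 and 65 entries had an unadjusted p under 0.05. Over all entries edgeR called 7 and 1 and DESeq2 9 and 2, and no member was among these.

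ssc-miR-107, whose reads can be told from miR-103 only near the 3′ end, was at a far lower level. In BF it was 39.4, 31.6 and 32.5 TPM (day 0), 30.7, 34.4 and 23.5 TPM (day 2), 30.3, 27.6 and 30.2 TPM (day 4) and 15.8, 30.5 and 23.8 TPM (day 8). All BF-8d libraries were below all BF-0d libraries, and the log2 fold change of -0.58 (SE 0.24, limma adjusted p = 0.0597) did not pass. It passed by edgeR on whole reads (-0.72, adjusted p = 0.0168), by DESeq2 (-0.75, adjusted p = 0.00580) and with median-of-ratios scaling (-0.76, limma adjusted p = 0.00779), and it passed without BF-8d replicate 2 at -0.79 (limma adjusted p = 0.0276). Without BF-8d replicate 1, which had 15.8 TPM, the log2 fold change was -0.34 (limma adjusted p = 0.241). In IMF the 12 libraries ranged from 16.7 to 26.5 TPM, and the group means stayed between 21.0 and 23.6 TPM.

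ssc-miR-26a in BF was 6659, 6829 and 5859 TPM (day 0), 4285, 5200 and 4393 TPM (day 2), 4639, 4446 and 3840 TPM (day 4) and 4518, 5203 and 4991 TPM (day 8). The BF-0d libraries were above all later BF libraries. The log2 fold change to day 2 was -0.48 (SE 0.12, limma adjusted p = 0.0891). That to day 8 was -0.39 (SE 0.18, limma adjusted p = 0.0867), so neither passed by limma on the TPM scale. Under median-of-ratios scaling the change to day 8 was -0.579 (limma adjusted p = 0.0156), which met the FDR but not the fold change required. The same held by edgeR and by DESeq2 (DESeq2 adjusted p = 0.00468). By DESeq2, ssc-miR-26a also met the FDR but not the fold change from day 0 to day 2. In IMF it was 4795, 4100 and 4210 TPM (day 0), 4113, 4119 and 4215 TPM (day 2), 4421, 4585 and 5411 TPM (day 4) and 6034, 4997 and 4983 TPM (day 8). All IMF-8d libraries were above all IMF-0d libraries, with a log2 fold change of 0.29 (SE 0.13, limma adjusted p = 0.137) that did not pass. The BF and IMF cultures thus had their highest means of this miRNA on opposite ends of the time course, BF on day 0 and IMF on day 8.

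**Figure D2:**
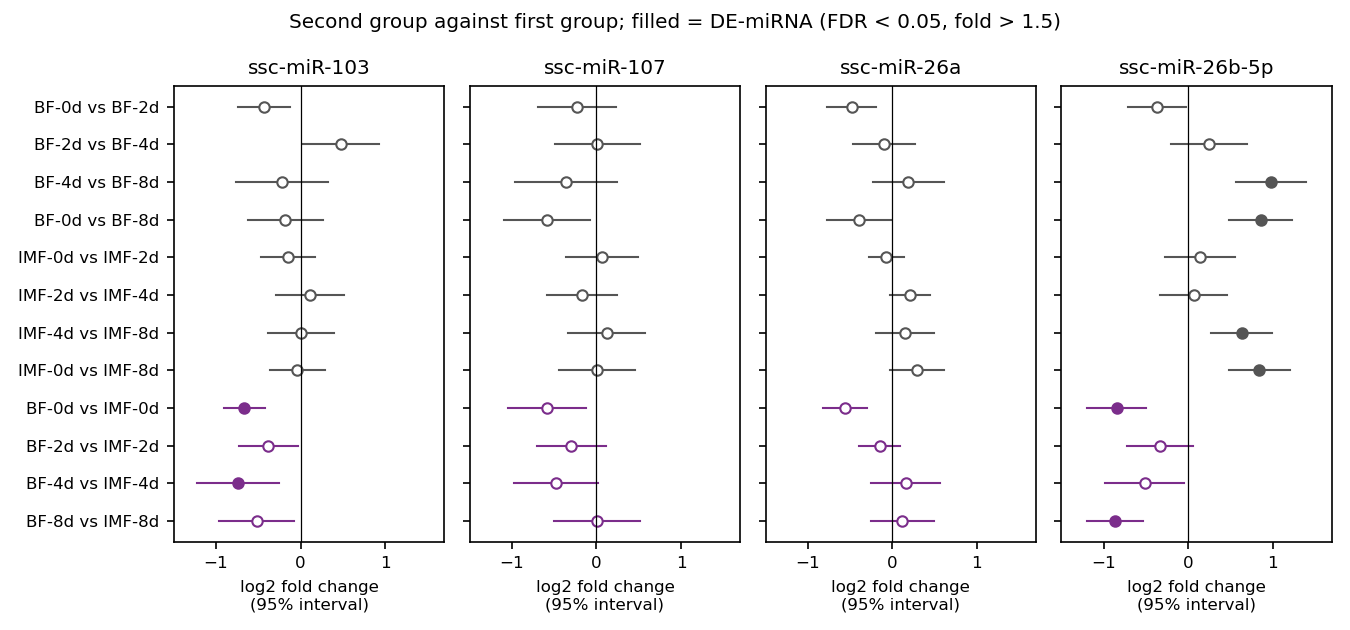
Log2 fold change of the second group against the first (x axis, with 95% intervals from limma) for the 4 tested members in the 12 comparisons (rows), with comparisons of days in grey and of IMF with BF in purple. Filled circles are DE-miRNAs: 4 comparisons of days, all of ssc-miR-26b-5p, and 4 comparisons of sources, 2 of ssc-miR-103 and 2 of ssc-miR-26b-5p.

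The next question was whether the 2 sources differed on the same day. ssc-miR-103 was lower in IMF than in BF on days 0 and 4, and ssc-miR-26b-5p on days 0 and 8, so 4 of 16 results of members were DE-miRNAs and all 4 were lower in IMF, beside 28.8% of results over all entries (495 of 1720). The members must be read beside all entries here: on the TPM scale the median log2 fold change of the 430 entries was -0.13, -0.14, -0.34 and -0.28 on days 0, 2, 4 and 8. Median-of-ratios scaling, which centres the libraries on the typical miRNA, moved these medians by 0.12, 0.13, 0.34 and 0.25. Under it 2 members were called, 1 lower and 1 higher in IMF, beside 23.5, 14, 27.9 and 34.2% of all entries on days 0, 2, 4 and 8.

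On day 0, the 3 BF libraries of ssc-miR-103 (1133 to 1212 TPM) were all above the 3 IMF libraries (650 to 801 TPM). The means were 1164 ± 42.1 and 736 ± 77.6 TPM, a log2 fold change of -0.67 (SE 0.10, limma adjusted p = 0.00628). ssc-miR-26b-5p differed likewise, 602 ± 50.1 against 336 ± 50.2 TPM, with a log2 fold change of -0.85 (SE 0.14, limma adjusted p = 0.00849). Both calls stood beside 29.3% DE-miRNAs among all entries. ssc-miR-26a had an adjusted p of 0.0120 by limma on day 0, but its log2 fold change of -0.56 was below the fold change required. It met it without BF-0d replicate 3 or IMF-0d replicate 1, at -0.63 each. ssc-miR-107 had a log2 fold change of -0.59 (limma adjusted p = 0.0611). With the replicate number as a block, its adjusted p by limma was 0.0389 and it passed. The labels do not say that equal replicate numbers are pairs. By edgeR on whole reads the log2 fold change on day 0 was -0.32 for ssc-miR-26a (adjusted p = 0.168) and -0.35 for ssc-miR-107 (adjusted p = 0.177). The call of ssc-miR-103 had a log2 fold change of -0.58 without IMF-0d replicate 2 and -0.50 under median-of-ratios scaling, both under the fold change required, and by edgeR it was -0.42 (adjusted p = 0.0828). ssc-miR-26b-5p was kept under these 3 settings, at -0.68 under median-of-ratios scaling, but its call was lost without replicate 1 of both groups (-0.89, limma adjusted p = 0.0640) or replicate 2 of both (-0.86, 0.0597).

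On day 2 no member was a DE-miRNA by limma, beside 12.3% of all entries, and none was by edgeR or DESeq2. The lowest unadjusted p among the members by limma was 0.0372, for ssc-miR-103, which was 864 ± 104 TPM in BF and 664 ± 87.3 TPM in IMF with overlapping libraries (log2 fold change -0.38, limma adjusted p = 0.147). It was the 1 member of 4 with an unadjusted p under 0.05 by limma, and none had one by edgeR or DESeq2.

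On day 4, ssc-miR-103 was 1203 ± 170 TPM in BF and 721 ± 126 TPM in IMF, a log2 fold change of -0.74 (SE 0.22, limma adjusted p = 0.0190), beside 36.3% DE-miRNAs among all entries. The call was lost without BF-4d replicate 2 (-0.65, limma adjusted p = 0.0598), without IMF-4d replicate 1 (-0.71, 0.0732) or without IMF-4d replicate 2 (-0.64, 0.0759). It was also lost under median-of-ratios scaling, where the log2 fold change was -0.31. ssc-miR-26b-5p was lower in every IMF library (339 to 448 TPM) than in every BF library (523 to 578 TPM), with a log2 fold change of -0.52 (SE 0.22) that did not pass (limma adjusted p = 0.0790) and was -0.09 under median-of-ratios scaling (limma adjusted p = 0.770). ssc-miR-26a, at 4308 ± 417 TPM in BF and 4806 ± 531 TPM in IMF, also changed its call with the scaling: its log2 fold change was 0.16 on the TPM scale (limma adjusted p = 0.558) and 0.59 under median-of-ratios scaling (limma adjusted p = 0.0257), where it was called as higher in IMF.

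On day 8, the BF libraries of ssc-miR-26b-5p (1053 to 1113 TPM) were all above the IMF libraries (525 to 646 TPM), with a log2 fold change of -0.86 (SE 0.15, limma adjusted p = 5.18e-04), beside 37.2% of all entries. Under median-of-ratios scaling the value was -0.54 (limma adjusted p = 0.00863), below the fold change required. ssc-miR-103 was 1051 ± 273 TPM in BF and 718 ± 84.1 TPM in IMF and did not pass (log2 fold change -0.52, limma adjusted p = 0.0565). BF-8d replicate 1 had 741 TPM against 1154 and 1258 TPM in the other BF-8d libraries, and without it the log2 fold change was -0.75 and passed (limma adjusted p = 6.10e-04). Under median-of-ratios scaling with all libraries it was -0.20 (limma adjusted p = 0.422). The same library was the lowest of the 24 for ssc-miR-107, at 15.8 TPM.

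**Figure D3:**
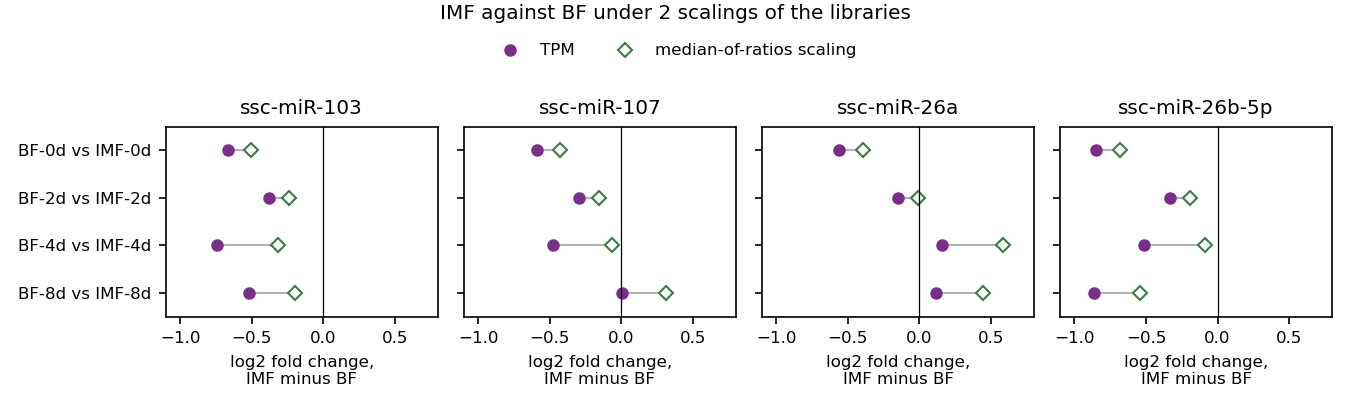
Log2 fold change of IMF against BF (x axis, negative values are lower in IMF) on days 0, 2, 4 and 8 (rows) for the 4 tested members, on the TPM scale (filled circles) and after median-of-ratios scaling (open diamonds). Every diamond lies to the right of its circle, and for ssc-miR-26a on day 4 the value goes from 0.16 to 0.59.

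Read across the 8 groups, ssc-miR-103 split by source: the 4 highest group means were the 4 BF groups, led by BF-4d (1203 TPM) and BF-0d (1164 TPM), and the 4 lowest the 4 IMF groups, from IMF-0d (736 TPM) to IMF-2d (664 TPM). Neighbours in this order differed by less than the larger of their SDs except BF-2d and IMF-0d, and all neighbours overlapped. ssc-miR-107 was highest in BF-0d (34.5 TPM) and lowest in IMF-4d (21.0 TPM), and the single step without overlap was between BF-4d (29.4 ± 1.55 TPM) and IMF-2d (23.6 ± 1.46 TPM). ssc-miR-26a was highest in BF-0d (6449 ± 518 TPM), followed by IMF-8d (5338 ± 602 TPM), and lowest in IMF-2d (4149 ± 57.4 TPM), with overlap at every step. ssc-miR-26b-5p was highest in BF-8d, and the step to BF-0d, of 486 TPM, was the single one without overlap. The sum of both miR-26 members and the low ssc-miR-26b-3p ran from 4521 ± 115 TPM in IMF-2d to 7051 ± 566 TPM in BF-0d, and that of miR-103 and miR-107 from 688 ± 88.3 TPM in IMF-2d to 1233 ± 169 TPM in BF-4d.

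To ask whether a member followed another time course in IMF than in BF, the interaction of source and day was tested with limma's moderated F statistic on the 24 libraries together. ssc-miR-26a was the 1 member called (limma adjusted p = 0.0251), beside 31.6% of all entries. The adjusted p by limma was 0.662 for ssc-miR-103, 0.364 for ssc-miR-107 and 0.179 for ssc-miR-26b-5p. From day 0 to day 8 the change of ssc-miR-26a in IMF was higher than that in BF by 0.68 on the log2 scale (SE 0.20, limma adjusted p = 0.0158). The call of ssc-miR-26a was lost when 1 replicate number was left out of every group, with an adjusted p by limma of 0.112 without replicate 1, 0.257 without replicate 2 and 0.149 without replicate 3. For ssc-miR-26b-5p, edgeR and DESeq2 gave adjusted p of 0.0310 and 0.0295. From day 0 to day 8 its change differed between the sources by -0.02 on the log2 scale (SE 0.23).

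A ratio of 2 members within a library does not depend on the total by which the library was scaled, so ratios were tested as well, by exact two-sided permutation tests of the mean log2 ratio. There were 6 such tests, and adjusted p are over these 6. Between sources the labels were permuted within each day (160000 arrangements, smallest p 1.25e-05). Between day 0 and day 8 they were permuted within each source (400 arrangements, smallest p 0.005). Within a single day or source the smallest exact p is 0.1, so smaller values come from combining days or sources. The cultures of all days and both sources came from the same few piglets, which the labels do not identify. These tests treat the libraries as independent, so their p-values measure the spread between libraries and not between animals.

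The ratio of miR-26a to miR-26b-5p was lower on day 8 than on day 0 and was higher in IMF than in BF. Over days 0, 2, 4 and 8 in BF it was 10.7 ± 0.263, 9.93 ± 0.232, 7.80 ± 0.526 and 4.51 ± 0.343 (SD, n = 3 each). In IMF it was 13.2 ± 1.73, 11.4 ± 1.63, 12.4 ± 0.953 and 8.93 ± 0.847 on the same days. Both carry the same seed, and of the reads of these 2 miRNAs a larger share came from miR-26b-5p on day 8 than on day 0. From day 0 to day 8 the log2 ratio fell by 0.90 on average over both sources (exact permutation p = 0.005, the smallest possible, adjusted p = 0.01), by 1.25 in BF and by 0.56 in IMF, without overlap in either. Whether the fall differed between the sources was not tested. IMF was above BF by 0.53 on the log2 scale (exact permutation p = 3.75e-05, adjusted p = 0.000225), in the same direction on 4 of 4 days, and the libraries overlapped on day 2 alone, where the difference was 0.18.

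The ratio of miR-103 to miR-107 was lower in IMF. The BF means were 34.1, 29.5, 41.2 and 45.9 on days 0, 2, 4 and 8, and the IMF means 32.6, 28.1, 34.4 and 31.6. The log2 difference was -0.23 (exact permutation p = 0.011, adjusted p = 0.0165), in the same direction on 4 of 4 days, and day 8 was the 1 day without overlap. Without replicate 3 of every group it was -0.17 with an exact permutation adjusted p of 0.241. From day 0 to day 8 the log2 ratio was higher by 0.42 in BF, without overlap, and differed by -0.05 in IMF, and the mean difference of 0.19 did not pass (exact permutation adjusted p = 0.222). These 2 entries share their first 21 bases, and how shorter reads were assigned is not given in the sources used here.

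The ratio of miR-103 to miR-26a, the abundant members of the 2 families, was 0.182, 0.187, 0.282 and 0.213 in BF and 0.168, 0.160, 0.150 and 0.135 in IMF on days 0, 2, 4 and 8. It was lower in IMF by 0.47 on the log2 scale (exact permutation p = 0.0004125, adjusted p = 0.0012375), in the same direction on 4 of 4 days, and without overlap on days 4 and 8. Relative to miR-26a, miR-103 was therefore lower in IMF whatever the library total. Between day 0 and day 8 the log2 ratio was higher by 0.21 in BF, where the libraries overlapped, and differed by -0.32 in IMF, where they did not, and the mean difference of -0.06 did not pass (exact permutation adjusted p = 0.725).

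**Figure D4:**
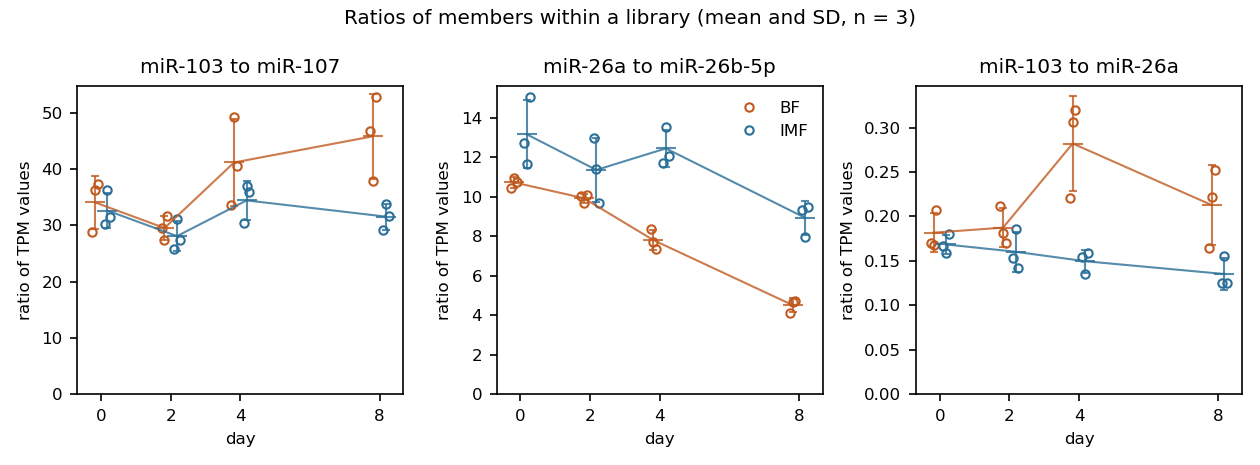
Ratio of the TPM values of 2 members in each library (y axis, from 0) on days 0, 2, 4 and 8 (x axis), with BF in orange and IMF in blue. Circles are libraries, horizontal marks are means and bars are SD (n = 3). The ratio of miR-26a to miR-26b-5p in BF goes from 10.7 on day 0 to 4.51 on day 8 and its means stay lower than those of IMF, and the ratio of miR-103 to miR-26a in BF is highest on day 4, at 0.282.

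miR-103 and miR-107 are counted in a wider group of miRNAs that hold the letters AGCAGC near the 5′ end, here starting at base 1, and at base 2 in miR-15a, miR-15b, miR-16, miR-195, miR-424-5p, miR-497 and miR-503. These letters, read on the miRNA strand, started at base 1 to 3 in 10 of the 958 entries with a sequence, or 1.04%. Their seeds differ from that of miR-103 because the motif is shifted by 1 base, as 2 of the group show.
ssc-miR-16: tAGCAGCAcgtaaatattggcg
ssc-miR-424-5p: cAGCAGCAattcatgttttgaa

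All 7 of these other miRNAs were tested. From day 0 to day 8 in BF, 2 were DE-miRNAs and both rose: ssc-miR-16 from 90.3 ± 19.6 to 191 ± 22.9 TPM (limma adjusted p = 4.51e-04) and ssc-miR-424-5p from 31.7 ± 5.44 to 63.2 ± 11.6 TPM (limma adjusted p = 0.00185). In IMF 3 rose, the same 2 and ssc-miR-195, which went from 4.13 ± 1.01 to 9.60 ± 2.32 TPM (limma adjusted p = 0.0156). Among all entries 42.8% in BF and 30.5% in IMF were DE-miRNAs. By limma on the TPM scale, miR-103 and miR-107 passed in neither source, while ssc-miR-107 passed as lower in BF by edgeR, DESeq2 and median-of-ratios scaling, as given above. The median log2 fold change of the 7 was 0.46 in BF and 0.53 in IMF, beside 0.15 and 0.07 over all entries, and under median-of-ratios scaling it was 0.28 and 0.51. Between the sources, 3, 1, 4 and 2 of them were lower in IMF on days 0, 2, 4 and 8, and none was higher. Among all entries 29.3, 12.3, 36.3 and 37.2% were DE-miRNAs on these days, and on the TPM scale 58 of these 126, 25 of 53, 32 of 156 and 52 of 160 were higher in IMF and the rest lower, against 36 of 60, 52 of 120 and 83 of 147 on days 2, 4 and 8 under median-of-ratios scaling, where 63 were higher on day 0 among 23.5% called. ssc-miR-424-5p was among them on all 4 days, and on day 4 it was 57.4 ± 15.2 TPM in BF and 16.7 ± 2.45 TPM in IMF (limma adjusted p = 3.64e-04). Under median-of-ratios scaling the numbers lower in IMF were 2, 2, 2 and 1, and 1 of the 7 was higher on day 4 and 1 on day 8.

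Of 15 other miRNAs known from insulin, glucose or lipid metabolism, 13 were tested. From day 0 to day 8, 7 rose and 3 fell in BF, and 4 rose and 0 fell in IMF, beside 42.8% and 30.5% DE-miRNAs in either direction among all entries. The median log2 fold change of the 13 was 0.64 in BF and 0.29 in IMF. With the libraries scaled by median of ratios the counts were 6 and 4 in BF and 4 and 0 in IMF, and the medians 0.46 and 0.26. ssc-miR-210, which is induced by low oxygen, rose from 17.8 ± 2.39 to 498 ± 103.3 TPM in BF (limma adjusted p = 3.05e-11) and from 67.9 ± 8.60 to 258 ± 44.1 TPM in IMF (limma adjusted p = 6.16e-04). ssc-miR-29b, of a family that acts on insulin signalling and collagen genes, rose from 18.1 ± 5.74 to 190 ± 8.35 TPM in BF (limma adjusted p = 4.27e-09). ssc-miR-27b-3p, known to restrain adipocyte differentiation, fell in BF from 15233 ± 640 to 7968 ± 653 TPM (limma adjusted p = 5.12e-04). Next to these, the rise of ssc-miR-26b-5p ranked 125 in size among the 430 entries in BF and 80 in IMF.

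Between the sources, 2 of the 13 were higher and 3 lower in IMF on day 0, 0 and 1 on day 2, 1 and 7 on day 4, and 1 and 6 on day 8, beside the same shares of all entries. Under median-of-ratios scaling the counts were 2 and 3, 1 and 1, 2 and 6, and 2 and 6. ssc-miR-378, which lies in a gene of a coactivator of mitochondrial metabolism, was lower in IMF on all 4 days, for example 1215 ± 240 against 371 ± 32.0 TPM on day 8 (limma adjusted p = 4.07e-06). ssc-miR-370 was higher in IMF on days 0, 4 and 8, with 20.4 ± 8.84 against 120 ± 23.5 TPM on day 8 (limma adjusted p = 1.13e-05). The interaction of source and day was called for 7 of these 13 and for 2 of the 7 with the shifted motif, beside 31.6% of all entries.

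The patterns most like those of the members were found by the Pearson correlation of log2(TPM + 1) over the 24 libraries among the 220 entries that averaged 10 TPM or more. For ssc-miR-103 they were ssc-miR-20a-5p (r = 0.90), ssc-let-7a (0.89) and ssc-miR-125a (0.87). For ssc-miR-107 they were ssc-miR-130b-5p (0.80), ssc-miR-140-5p (0.79) and ssc-let-7c (0.78). ssc-miR-26a was matched less closely, by ssc-miR-214-3p (0.74), ssc-miR-374a-5p (0.74) and ssc-miR-374b-5p (0.68). For ssc-miR-26b-5p they were ssc-miR-148b-3p (0.92) and the 2 entries of miR-218, ssc-miR-218-5p and ssc-miR-218, whose values are identical (0.91). Between members r was 0.72 for ssc-miR-103 and ssc-miR-107, 0.45 for ssc-miR-26a and ssc-miR-26b-5p and 0.16 for ssc-miR-107 and ssc-miR-26b-5p. All these values share the library totals and the 8 groups, and they are descriptions.

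Some measures moved with the groups. The share of ssc-miR-21-5p in a library lay between 54.2 and 59.1% in BF-0d and between 53.0 and 60.5% in IMF-0d, against 27.9 to 40.3% in BF-8d and 39.4 to 45.0% in IMF-8d, and BF-8d replicate 1 had the lowest share. Of 6 skeletal muscle miRNAs, 5 were in the table, with a summed level from 475 to 544 TPM in BF-2d and from 1324 to 2361 TPM in BF-8d, and from 696 to 1738 TPM in IMF over all days. Nearly all of it was ssc-miR-1, with a mean of 1072 TPM. ssc-miR-133a-3p and ssc-miR-499-5p were read in every library, with means of 15.8 and 14.0 TPM, while ssc-miR-206 was at 0 in 13 libraries and ssc-miR-133b never passed 0.987 TPM. The 7 miRNAs of blood cells were low, and in both sources their sum was higher on day 8 than on day 0 without overlap: it was 1.19 to 1.99 TPM in BF-0d, 2.81 to 6.37 TPM in BF-4d and 3.71 to 4.44 TPM in BF-8d, and 1.31 to 1.87 TPM in IMF-0d and 6.68 to 8.08 TPM in IMF-8d. The 2 miRNAs of endothelium were higher in BF than in IMF without overlap on day 4 (53.6 to 86.4 against 18.7 to 30.9 TPM) and day 8 (51.2 to 90.9 against 24.6 to 34.8 TPM). Defining adipocyte markers are mRNAs, which were not analysed here. The part of these measures in the results was not tested.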

How the data were processed

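The authors sequenced small RNA on a NovaSeq (50 nt, single-end), trimmed and quality-filtered the reads, aligned them to Sscrofa11.1 by Bowtie allowing no mismatch, discarded other annotated small RNA classes, took known miRNAs from miRBase through BLAST and new ones from miRDeep2, and compared groups with DESeq2. The deposited unit is RPM, which the authors call TPM: each library sums to 1000000 over the 1587 entries. The 38088 deposited values are multiples of the worth of 1 read (0.0593 to 0.202 TPM) to within 0.000452 read, which gave back whole reads, with a median total of 10614384.5. In the 24 pairs of libraries from one group the chi-square per degree of freedom was 38.8 or more, so none was a repeat deposit. The mRNA libraries were not analysed here.

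Groups were taken from the labels. limma 3.58.1 (eBayes with trend, R 4.3.3) was fitted to 2 groups at a time, in 12 comparisons, on log2(TPM + 1) of the 430 entries averaging 1 TPM or more, with Benjamini-Hochberg adjustment over these. Log2 fold changes give the later day against the earlier, or IMF against BF, and the pseudocount of 1 TPM makes changes of low entries look smaller. The interaction was fitted on 24 libraries at once. Ratios got exact permutation tests (SciPy 1.17.1). Mature sequences came from the study's list and were searched on both strands of the RefSeq copy of Sscrofa11.1. Figures were drawn with Matplotlib 3.10.9. The pairwise limma fit and the limma fit of the interaction were tested on simulated data, and the alternatives and the permutation tests were not. Named are the members, those of the 2 lists (the wider group of miR-107 and the metabolic miRNAs) that were called in a comparison discussed, the 3 entries most like each member, marker miRNAs and ssc-miR-21-5p. The members, lists and tests were chosen with earlier results of these data known.

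The alternatives were: adding 0.1 before the log, dropping the filter or raising it to 10 TPM, median-of-ratios scaling, the replicate number as a block, edgeR 4.0.16 and DESeq2 1.42.0 on whole reads, merging identical entries, FDR alone, a single fit of the 24 libraries and leaving out libraries. To see whether equal replicate numbers pair libraries, deviations from the group means were correlated: 11 of 36 pairs were over 0.1 (range -0.33 to 0.51). BF-0d vs IMF-0d was the 1 of 12 comparisons in which all 3 were, and the labels give no pairs. The reported fits therefore left the libraries unpaired. The replicate block was run only as an alternative, in all 12 comparisons, the interaction and the ratios.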

Additional observations from a re-analysis of the deposited data

Results flagged for a closer look

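1 result was set apart because the effect of the day differed between the sources by a test of the difference itself: the source-by-day interaction of ssc-miR-26a, with a limma adjusted p of 0.0251. Its means in BF were 6449, 4626, 4308 and 4904 TPM on days 0, 2, 4 and 8, and in IMF 4368, 4149, 4806 and 5338 TPM. No group had more than 3 libraries, so single libraries could not be judged as outliers.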

How the results depend on the processing

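TPM values are shares of a total, 3 libraries a group leave small changes undetected, and ssc-miR-26b-3p was too low to test. The 8 called fold changes kept their direction in each of 19 alternatives, and ssc-miR-26b-5p between BF-0d and BF-8d passed in all 19 (0.67 to 0.90). Calls between days numbered 4 also under median-of-ratios scaling, where ssc-miR-107 between BF-0d and BF-8d was gained and ssc-miR-26b-5p between IMF-4d and IMF-8d lost, and edgeR and DESeq2 made the same exchange. Calls of members between IMF and BF went from 4 to 2 under median-of-ratios scaling, edgeR and DESeq2, beside the shift of the median of all entries given with these comparisons. Without the filter, where 1587 entries were tested, calls were 3 between days, 3 between sources and 0 for the interaction, with ssc-miR-26b-5p between IMF-4d and IMF-8d (limma adjusted p = 0.121) and ssc-miR-103 on day 4 (0.0972) lost. Calls of the interaction were 2 by edgeR and 2 by DESeq2, and the share of all entries called for it was not counted for these tools. Over all entries, DE-miRNAs between BF-0d and BF-2d numbered 18 in the reported fit, 35 under median-of-ratios scaling and 56 by edgeR and by DESeq2, those between BF-2d and BF-4d 26, 17 by edgeR and 54 by DESeq2, and those between BF-4d and BF-8d 13 and 24 by DESeq2. The cause of these changes was not tested.

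The replicate block gave 3 calls between days, since ssc-miR-26b-5p between IMF-4d and IMF-8d had a limma adjusted p of 0.102, and 5 between sources, with ssc-miR-107 on day 0. For the 3 ratios between sources its exact sign flips gave adjusted p of 0.0244, 0.00439 and 0.00439, and it changed no other call. Leaving out a replicate number from every group gave 2 to 3 calls between days, 2 to 3 between sources and 0 for the interaction. For ssc-miR-26b-5p the calls lost in 1 or more of these fits were BF-4d vs BF-8d, IMF-4d vs IMF-8d, IMF-0d vs IMF-8d and day 0 between sources, and for ssc-miR-103 days 0 and 4. The log2 ratio of miR-26a to miR-26b-5p from day 0 to day 8 was then -0.91 to -0.89, and with 2 libraries a group its exact test cannot reach 0.05, that of miR-103 to miR-107 between sources -0.29 to -0.17, and that of miR-103 to miR-26a from day 0 to day 8 -0.18 to 0.034.

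Of 912 alternative fold changes, 805 kept direction and call, 36 lost a call, 16 gained one and 55 turned sign, all of these last in results that did not pass and had a reported size of at most 0.22. Under median-of-ratios scaling, edgeR and DESeq2 in that order, the log2 values that turned were, for IMF-4d vs IMF-8d, -0.19, -0.22 and -0.23 (ssc-miR-103), -0.062, -0.10 and -0.11 (ssc-miR-107) and -0.037, -0.075 and -0.084 (ssc-miR-26a), and, for ssc-miR-107, -0.10, -0.18 and -0.17 (BF-2d vs BF-4d) and -0.015, -0.10 and -0.11 (IMF-0d vs IMF-8d). By edgeR alone ssc-miR-107 turned to -0.0114 (IMF-0d vs IMF-2d) and ssc-miR-26a to 0.023 (BF-2d vs IMF-2d). Leaving out libraries gave, for ssc-miR-103, -0.33 to 0.051 (BF-0d vs BF-8d), -0.37 to 0.012 (BF-4d vs BF-8d), -0.19 to 0.086 (IMF-0d vs IMF-8d), -0.093 to 0.32 (IMF-2d vs IMF-4d) and -0.16 to 0.24 (IMF-4d vs IMF-8d). For ssc-miR-107 it gave -0.16 to 0.17 (BF-2d vs BF-4d), -0.33 to 0.21 (BF-8d vs IMF-8d), -0.12 to 0.17 (IMF-0d vs IMF-2d), -0.16 to 0.15 (IMF-0d vs IMF-8d), -0.32 to 0.0043 (IMF-2d vs IMF-4d) and -0.0402 to 0.32 (IMF-4d vs IMF-8d). For ssc-miR-26a it gave -0.013 to 0.27 (BF-4d vs IMF-4d), -0.030 to 0.21 (BF-8d vs IMF-8d) and -0.11 to 0.0042 (IMF-0d vs IMF-2d), and for ssc-miR-26b-5p -0.10 to 0.34 (IMF-0d vs IMF-2d) and -0.042 to 0.19 (IMF-2d vs IMF-4d).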
